A study of Mus musculus with 44 samples.

Results

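The 10 genes described here encode the MHC class I antigen presentation machinery, and were taken by symbol from 4 tables of raw RNA-seq counts of mouse bone marrow-derived macrophages (BMDMs), in which they are 10 of 24940 listed genes. All 10 were found in each table and all 10 passed the filter on low counts in each. They were set by symbol and not by a threshold on a measured value, although earlier results of these data were known when genes were chosen. Class I molecules show peptides from inside the cell to CD8+ T cells and are made by nearly every nucleated cell. Proteins are cut to peptides by the proteasome, whose catalytic subunits can be replaced by Psmb8 (LMP7), Psmb9 (LMP2) and Psmb10 (MECL-1) to give the immunoproteasome. The peptides are pumped into the endoplasmic reticulum by the transporter made of Tap1 and Tap2, tapasin (Tapbp) tethers empty class I molecules to that transporter, and the loaded molecule consists of a heavy chain (here H2-K1 and H2-D1, the classical K and D chains of the mouse) with beta-2 microglobulin (B2m). Nlrc5 is the class I transactivator, a nuclear factor that acts at class I gene promoters, and interferons and microbial ligands are textbook inducers of the whole pathway.

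The data were 44 libraries in 22 groups of 2 replicates. The NCoR table (24 libraries) held wild-type cells (WT, NCoR flox/flox without Cre) and NCoR-deficient cells (NKO, NCoR flox/flox with LysMCre) that received vehicle (Veh), KLA, RANKL, PolyIC, IFNb or IL4. KLA (Kdo2 lipid A) is an agonist of TLR4, PolyIC mimics double-stranded RNA and acts on TLR3, IFNb is a type I interferon, IL4 a cytokine of alternative activation, and RANKL the cytokine that drives osteoclast formation. The RGFP966 table (6 libraries) held wild-type cells with vehicle, KLA, or KLA with RGFP966, an inhibitor of the deacetylase HDAC3. The Pgc1b table (8 libraries) held Pgc1b flox/flox cells without Cre (Pgc1b_flox) and with LysMCre (Pgc1b_flox_Cre), each with vehicle or KLA. The TBK1i table (6 libraries) held wild-type cells with DMSO and vehicle, DMSO and KLA, or KLA and GSK8612, an inhibitor of the kinase TBK1 (TBK1i_KLA), and inhibitor without KLA was not analysed here. Treatment with vehicle or ligand lasted 6 h, and 12 h for RANKL. Cells came from C57BL/6 mice aged 8 to 12 weeks, were grown with M-CSF and were deprived of serum for 12 h before the ligand. Per the study's methods, RGFP966 and GSK8612 were added when serum was withdrawn, so the inhibitors were present before KLA. LysMCre is Cre driven by the Lyz2 promoter, so both knockouts are restricted to the myeloid lineage. The labels do not say whether the replicates of a group came from separate animals, so p-values measure the spread between these samples, which may be technical.

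Sequences upstream of 6 of the genes are shown. Those of H2-K1, H2-D1 and B2m, which encode the surface molecule, hold motifs next to each other, Tap1 and Psmb9 share their upstream region, and Psmb8 lies beside Tap1. Of the 10 genes, 8 had a RefSeq promoter window (GRCm38.p6, 250 bases before the transcription start and 50 from it), and none is given for Tap2 and Nlrc5. Capitals in the stretches of H2-K1, H2-D1 and B2m mark an IRF-type core (AANNGAAA) and an NF-kB-type match (GGGANNNNCC). The H2-K1 stretch is chr17:34000334-34000483 on the minus strand (bases -150 to -1 before the start), the H2-D1 stretch is chr17:35262894-35263043 on the plus strand (bases -200 to -51), and the B2m stretch is chr2:122147537-122147686 on the plus strand (bases -150 to -1).
H2-K1: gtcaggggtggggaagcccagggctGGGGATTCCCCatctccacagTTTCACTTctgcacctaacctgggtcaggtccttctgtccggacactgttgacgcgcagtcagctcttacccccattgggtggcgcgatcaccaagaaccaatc
H2-D1: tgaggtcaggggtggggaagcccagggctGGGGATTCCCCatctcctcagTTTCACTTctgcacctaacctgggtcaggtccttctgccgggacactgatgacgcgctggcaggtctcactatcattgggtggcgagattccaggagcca
B2m: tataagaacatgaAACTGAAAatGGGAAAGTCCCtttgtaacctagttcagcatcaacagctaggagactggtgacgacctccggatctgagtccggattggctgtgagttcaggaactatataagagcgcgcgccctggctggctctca
The H2-K1 stretch matched H2-D1 bases -196 to -47 at 126 of 150 positions (84%), and in all 3 genes the IRF-type core lay next to the NF-kB-type match. The IRF-type core was present in 23.9% of 32851 promoter windows of the same length and in 3 of the 8 windows here, which were those of H2-K1, H2-D1 and B2m. The NF-kB-type match was present in 20.7% of all windows and in the same 3, where its matches on both strands overlapped each other. Motifs were searched on both strands and were chosen after the values and sequences had been seen, and a match describes the letters, not a bound site.

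The next stretch is chr17:34187306-34187605 on the plus strand (bases -250 to 49 around the Tap1 start). Tap1 and Psmb9 are transcribed head to head with their starts 226 bases apart, so this 300-base stretch also holds the start of Psmb9 on the minus strand at chr17:34187330. Capitals mark CCAAT and TGACG.
Tap1 and Psmb9: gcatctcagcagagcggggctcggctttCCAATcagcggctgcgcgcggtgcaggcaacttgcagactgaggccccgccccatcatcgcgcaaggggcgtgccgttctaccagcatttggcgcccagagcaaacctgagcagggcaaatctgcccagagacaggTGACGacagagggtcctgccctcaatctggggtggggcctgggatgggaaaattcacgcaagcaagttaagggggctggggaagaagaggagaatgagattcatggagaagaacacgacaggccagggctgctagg
CCAAT was present in 37.4% of all windows and in 6 of the 8 here, and TGACG in 20.8% of all windows and in 5 of the 8. The windows of Tap1 and Psmb9 overlap, and the marked CCAAT and TGACG were each counted for both genes. Those of H2-K1 and H2-D1 are also much alike, so the 8 windows are not independent. The last stretch is chr17:34198045-34198194 on the plus strand, before the Psmb8 start (bases -150 to -1), with capitals for a match to the STAT-type GAS motif TTCNNNGAA, which reads alike on both strands.
Psmb8: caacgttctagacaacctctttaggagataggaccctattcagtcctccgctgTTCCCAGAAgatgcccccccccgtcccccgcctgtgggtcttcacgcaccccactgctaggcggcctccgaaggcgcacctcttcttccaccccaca
The GAS motif was present in 8.3% of all windows and in the Psmb8 window of the 8.

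Of the 10 genes, 7 lie on chromosome 17. In mm10 these are Tapbp (NM_009318, chr17:33919478-33929290, plus strand), H2-K1 (NM_001001892, chr17:33996012-34000333, minus), Psmb9 (NM_013585, chr17:34182099-34187330, minus), Tap1 (NM_013683, chr17:34187556-34197225, plus), Psmb8 (NM_010724, chr17:34198195-34201454, plus), Tap2 (NM_011530, chr17:34204479-34216321, plus) and H2-D1 (NM_010380, chr17:35263094-35267497, plus). The others are B2m (NM_009735, chr2:122147687-122153082, plus), Nlrc5 (NM_001033207, chr8:94472763-94527272, plus) and Psmb10 (NM_013640, chr8:105935728-105938392, minus). Counts are reads in the exons of these transcripts. The H2-D1 transcript overlaps that of H2-L on the same strand, and H2-L held a median of 0.519 times the reads of H2-D1. Some class I heavy chains are close copies of each other, so how reads were split among H2-K1, H2-D1 and their paralogs is uncertain.

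The libraries held between 8.32 and 16.8 megareads assigned to genes (median 12.2), and 3 counts in them equal 0.179 to 0.360 CPM (counts per megaread assigned) before scaling, a floor that covers counting error only. Levels below are CPM after TMM scaling within each table. Replicates of these genes had a coefficient of variation of 0.0709% to 42.6% (median 2.63% over 220 gene-group pairs), and WT_Veh was the group with the widest pair, replicate 2 being the higher for all 10 genes. Library names carry date stamps: vehicle, PolyIC, IFNb and IL4 libraries of the NCoR table share a stamp, while RANKL, WT_KLA and NKO_KLA libraries have others. Xist and Y-linked genes split the 44 libraries into 34 with 5206 to 21178 Xist counts and 10 with 578 to 3050 counts of Y-linked genes, the latter being NKO_KLA and the Pgc1b table, so NKO_KLA differs from WT_KLA in date and sex as well as genotype. Ncor1 was lower in NKO than in WT libraries under each of the 6 treatments (log2 fold change -1.41 to -1.78), whereas Ppargc1b, the gene of PGC1β, was not lower in libraries labelled Pgc1b_flox_Cre (with vehicle 3.8 and 3.4 CPM against 4.4 and 2.9 CPM, and with KLA 10.3 and 8.7 CPM against 7.8 and 6.8 CPM), so these are named below by their label. A count over all exons need not fall when a floxed exon is deleted, so it is no check of the deletion, and the study's immunoblot of PGC1β protein in these genotypes was not analysed here. All 7 macrophage markers were detected in every group, and the RANKL libraries also held 5 of 5 neutrophil markers at a summed 629 to 987 CPM against 1.06 to 22.1 CPM elsewhere.

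Levels differed over a wide range between the genes. Per kb of transcript, WT_Veh held B2m at 2591, H2-D1 at 1599.7, H2-K1 at 667 and Tapbp at 209 CPM per kb (mean of 2 libraries). The immunoproteasome subunits lay lower, at 76.3 for Psmb8, 60.7 for Psmb10 and 39.5 CPM per kb for Psmb9. Tap1 and Tap2, the 2 parts of the transporter, lay side by side at 27.5 and 26.4 CPM per kb, and Nlrc5 was the lowest of the 10 at 7.11. The genes that were low at rest spanned the most over the 22 groups. The highest group mean was 57.6 times the lowest for Tap1, 51.1 times for Nlrc5, 21.99 times for Psmb9 and 18.4 times for Tap2. It was 8.45 times for H2-K1, 4.48 times for B2m and 4.40 times for H2-D1. For each of these the lowest group lay outside the NCoR table and the highest within it. Tables were scaled separately, so the spans include differences between tables. Within the NCoR table, group means ran from 54.7 to 2009 CPM for Tap1 and from 738 to 3284 CPM for H2-K1.

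**Figure D1:**
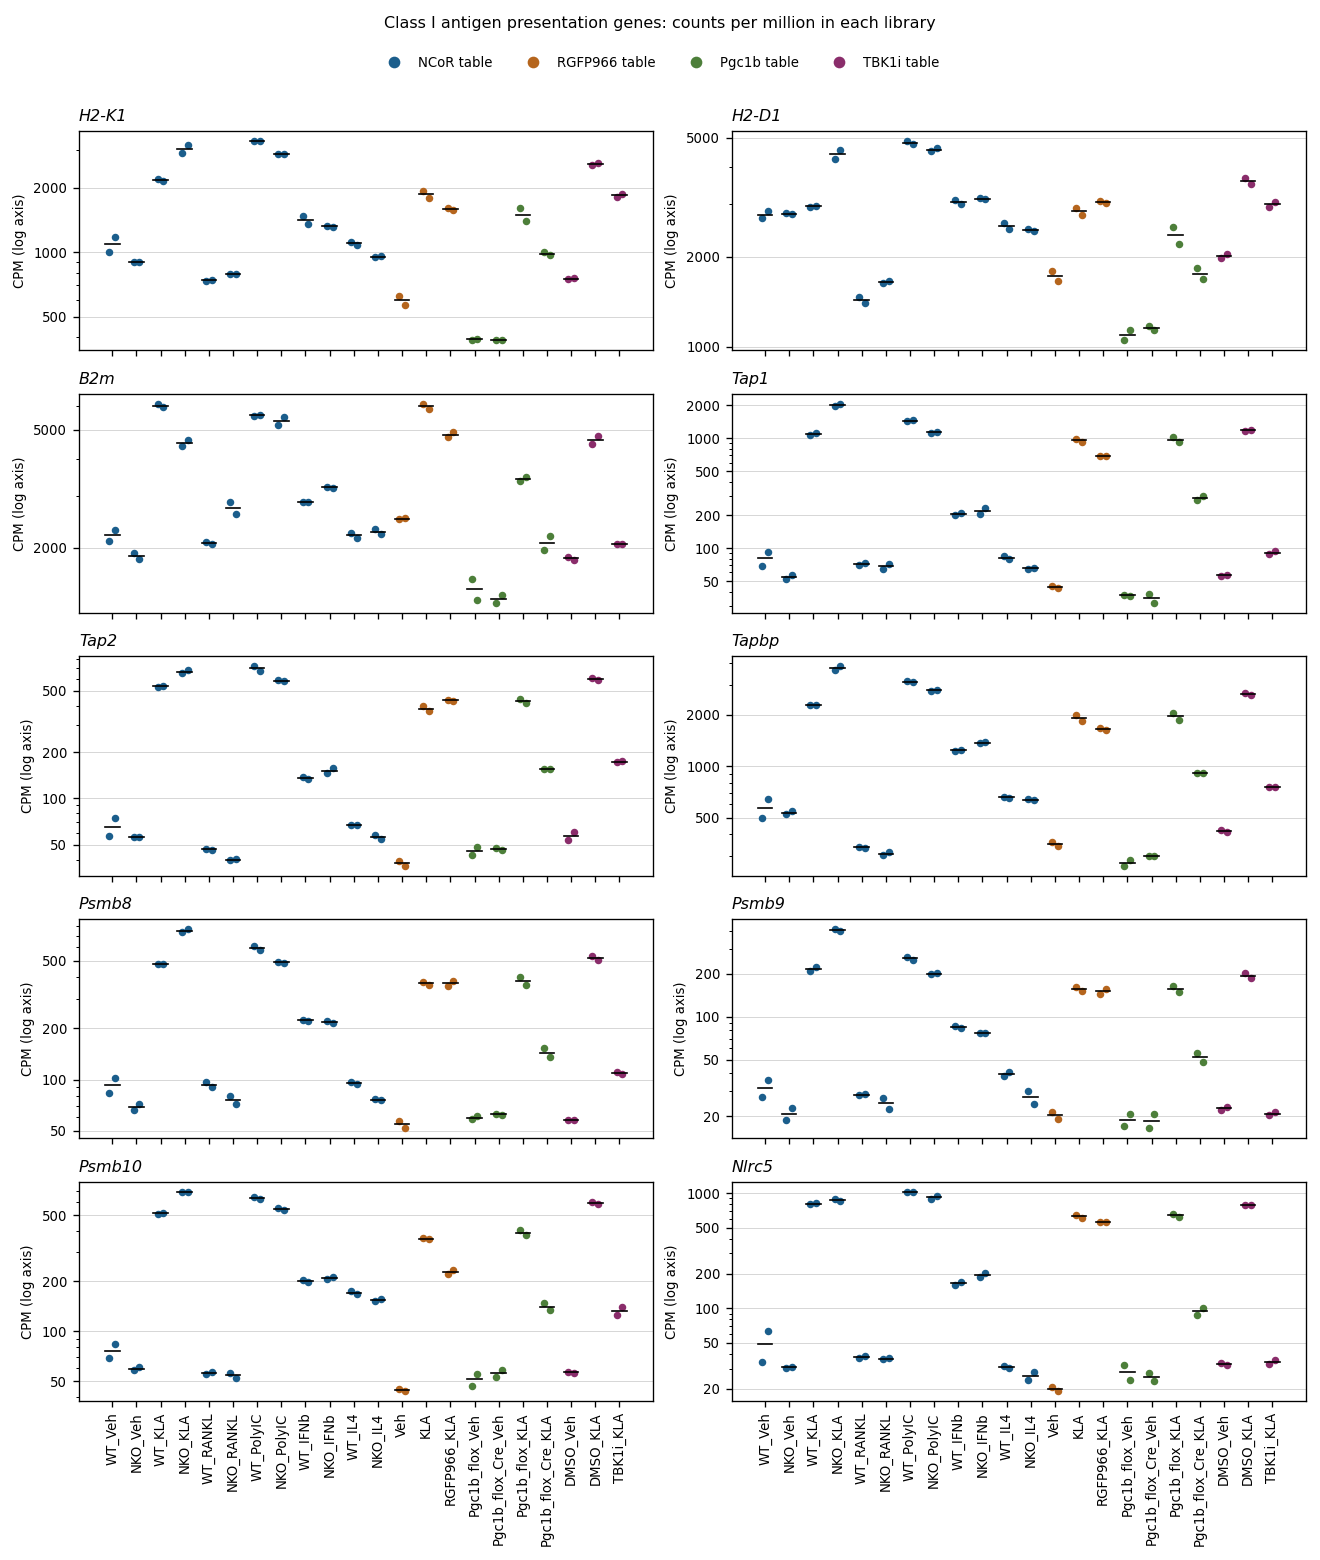
Level of each of the 10 genes in every library, as TMM-scaled CPM on a log axis, by group and table (points are libraries, 2 per group). For Tap1 and Nlrc5 the plot shows low vehicle, RANKL and IL4 libraries, high KLA and PolyIC libraries, and IFNb libraries between them. Exceptions with KLA were TBK1i_KLA (Tap1 at 88.0 to 94.1 CPM, Nlrc5 at 32.8 to 35.9 CPM) and Pgc1b_flox_Cre_KLA (Nlrc5 at 87.4 to 100.3 CPM).

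The first question was which signals raise the class I genes. In WT BMDMs, PolyIC raised 10 of 10 genes, KLA 9 of 10 and IFNb 7 of 10, while with IL4 1 gene and with RANKL no gene was called higher. A call here needs an adjusted p below 0.05 (edgeR quasi-likelihood test, Benjamini-Hochberg) and a fold change above 1.5. The share of all tested genes called higher was 22.2% with PolyIC, 25.4% with KLA and 4.09% with IFNb. Of 13407 tested genes, 889 were called higher with IL4 and 3225 with RANKL. The median log2 fold change over the 10 genes was 2.85 with PolyIC, 2.56 with KLA and 1.19 with IFNb, against -0.07, -0.14 and -0.00 over all tested genes.

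Nlrc5, the transactivator, was at 34.3 and 63.8 CPM in WT_Veh, at 805 and 814 CPM in WT_KLA, and at 1013 and 1029 CPM in WT_PolyIC. Under IFNb it was at 159 and 170 CPM, so that all 3 stimulated groups lay above both vehicle libraries. Its log2 fold change was 4.04 ± 0.17 (SE) with KLA (adjusted p = 4.8e-11), 4.38 with PolyIC (adjusted p = 2.3e-11) and 1.74 with IFNb (adjusted p = 4e-06), and with only the compared groups in the fit the IFNb value was not called (1.75, adjusted p = 0.12). The WT_PolyIC libraries lay above the WT_KLA libraries, and the NKO_KLA and NKO_PolyIC libraries between them overlapped each other.

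The transporter subunits moved with it. Tap1 was at 69.2 and 92.5 CPM in WT_Veh, at 1066 and 1110 CPM with KLA, at 1424 and 1453 CPM with PolyIC and at 200.4 and 208 CPM with IFNb, with no overlap between vehicle and any of the 3. Its log2 fold changes were 3.75 ± 0.08, 4.15 and 1.34 in that order. Tap2 was at 56.6 and 74.2 CPM in WT_Veh and rose to 531 and 541 CPM with KLA (log2 fold change 3.03), to 721 and 677 CPM with PolyIC (3.42) and to 138 and 134 CPM with IFNb (1.06). Tapbp, the bridge between transporter and heavy chain, rose from 501 and 641 CPM to 2282 and 2277 CPM with KLA (2.00), 3138 and 3093 CPM with PolyIC (2.45) and 1231 and 1252 CPM with IFNb (1.12).

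The immunoproteasome subunits rose by similar amounts. Psmb8 was at 83.2 and 102 CPM in WT_Veh, 477 and 481 CPM with KLA, 610 and 577 CPM with PolyIC and 225 and 221 CPM with IFNb (log2 fold changes 2.37, 2.68 and 1.27). Psmb9 was at 27.3 and 35.8 CPM in WT_Veh, 210 and 223 CPM with KLA, 264 and 252 CPM with PolyIC and 85.9 and 82.9 CPM with IFNb (2.78, 3.03 and 1.42). Psmb10 was at 69.3 and 83.7 CPM in WT_Veh, 507 and 518 CPM with KLA, 638 and 624 CPM with PolyIC and 204 and 199 CPM with IFNb (2.74, 3.04 and 1.40). The groups did not overlap for any of the 3 subunits.

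The surface molecule itself moved least. B2m was at 2115 and 2299 CPM in WT_Veh, 6090 and 5969 CPM with KLA and 5571 and 5616 CPM with PolyIC (log2 fold changes 1.45 and 1.34), and at 2848 and 2867 CPM with IFNb (0.37, not called). H2-K1 was at 1003 and 1179 CPM in WT_Veh, 2184 and 2147 CPM with KLA (0.99) and 3289 and 3279 CPM with PolyIC (1.59), and at 1469 and 1354 CPM with IFNb (0.37, not called). H2-D1 was at 2693 and 2829 CPM in WT_Veh, 2927 and 2962 CPM with KLA (0.09, 95% interval -0.00 to 0.19, adjusted p = 0.073), 4863 and 4743 CPM with PolyIC (0.80) and 3091 and 2991 CPM with IFNb (0.14, not called). WT_KLA also carries another date stamp than WT_Veh and lacks its fibroblast markers (0 of 3 above 3 counts and a summed 0 to 0.167 CPM, against 3 of 3 and 72.3 to 79.5 CPM), and the part of either in the KLA values was not tested. These values depend on the scaling, because without TMM, as CPM of the library total, every log2 ratio shifted by -0.728 with KLA and by -0.644 with PolyIC. H2-D1 then turned to -0.64 with KLA and fell under the 1.5-fold threshold with PolyIC (0.15), as did H2-K1 with KLA (0.26), while the other called genes stayed above that threshold in the same direction.

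**Figure D2:**
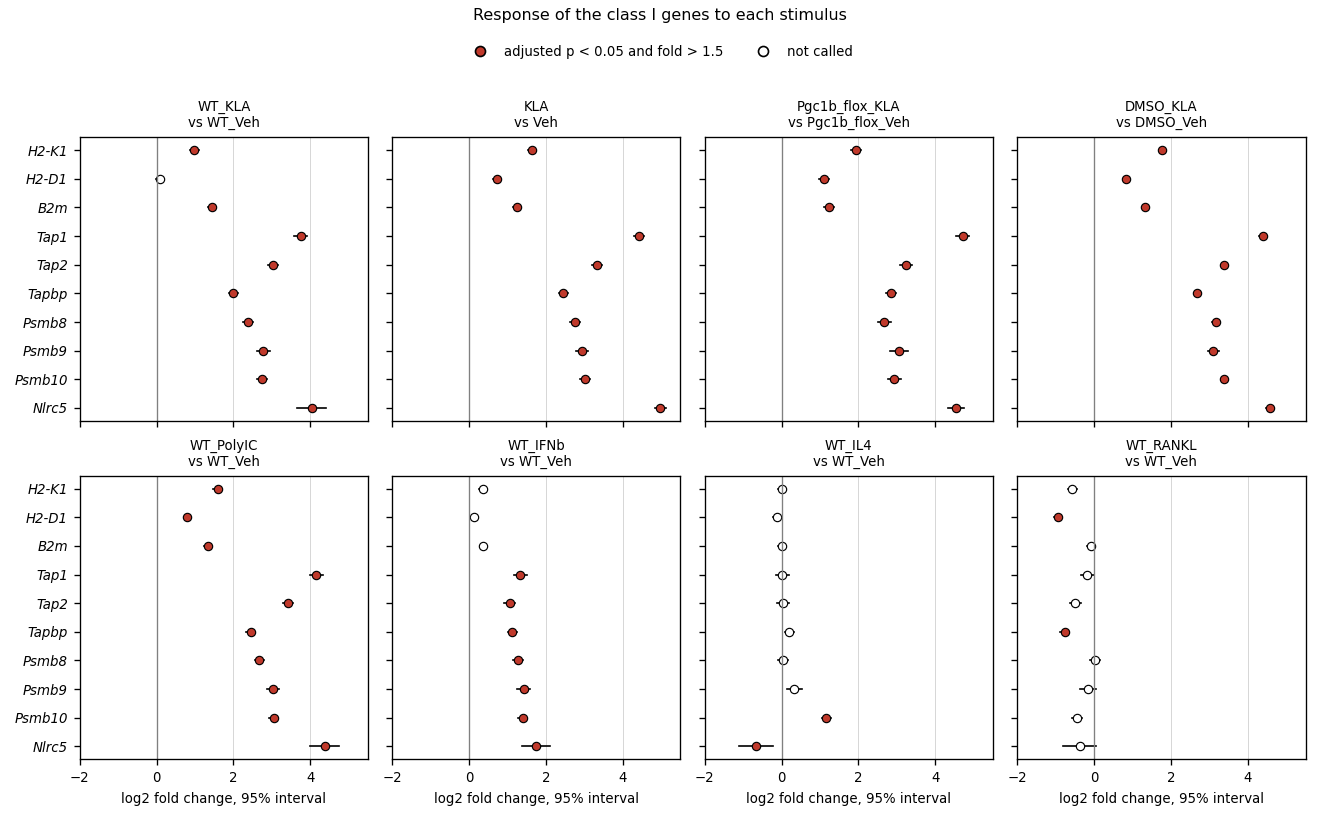
Log2 fold change of each of the 10 genes (x axis, 95% intervals, edgeR) in 8 comparisons of a stimulus with the vehicle group of the same table. Of these, 4 are with KLA. Red points are called, open points are not, and values above 0 are higher with the stimulus. WT_KLA and WT_RANKL carry other date stamps than WT_Veh, and WT_RANKL another time. Nlrc5 and Tap1 lie farthest to the right with KLA and PolyIC, H2-D1 in WT_KLA has an interval that reaches 0, and with IL4 Psmb10 stands at 1.16.

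KLA was measured against vehicle in 3 further sets of control cells, which share no libraries. All 10 genes were called higher in each, where 27.9% (RGFP966 table), 22.8% (Pgc1b_flox without Cre) and 29.6% (DMSO) of tested genes were called higher. Nlrc5 rose most in 2 of the 3 sets, from 20.8 and 19.2 CPM to 647 and 613 CPM in the RGFP966 table (log2 fold change 4.98) and from 33.5 and 32.2 CPM to 784 and 791 CPM with DMSO (4.58). In Pgc1b_flox cells Tap1 led, from 37.6 and 36.5 CPM to 1019 and 927 CPM (4.72), ahead of Nlrc5 (4.53). H2-D1 rose least in all 3, by 0.72, 1.11 and 0.84 on the log2 scale, and here the libraries with and without KLA did not overlap. Without TMM the shifts were -0.767, -0.695 and -0.779, and H2-D1 stood at -0.05 in the RGFP966 table, 0.42 in Pgc1b_flox cells and 0.06 with DMSO, and B2m, called at 1.25, 1.23 and 1.33, stood at 0.49, 0.54 and 0.55, under the fold threshold. The vehicle level of H2-D1 was 2693 and 2829 CPM in WT_Veh against 1048 to 2034 CPM in the vehicle libraries of these 3 tables, levels that were scaled separately.

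PolyIC and IFNb, both given to WT cells under 1 date stamp, were compared with each other. All 10 genes were higher with PolyIC, where 20.5% of tested genes were called higher. The difference was largest for Tap1 (log2 2.82) and Nlrc5 (2.64) and smallest for H2-D1 (0.66), and without TMM (shift -0.539) H2-D1 and B2m fell under the fold threshold. Irf1, an interferon regulatory factor known to induce Tap1 and Psmb9, rose with PolyIC (3.94) and KLA (2.62) but was not called with IFNb (0.05 ± 0.08). H2-M2, another class I heavy chain, was at a mean 469 CPM with PolyIC against 6.04 CPM with IFNb (6.27).

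IL4 raised 1 of the 10 genes, where 889 of 13407 tested genes were called higher. Psmb10 went from 69.3 and 83.7 CPM to 175 and 167 CPM (log2 fold change 1.16 ± 0.06, adjusted p = 1.4e-24), while its partners Psmb8 (0.04) and Psmb9 (0.33) were not called. Nlrc5 was called lower, at 31.8 and 30.4 CPM (-0.66, adjusted p = 0.025), but without WT_Veh replicate 2 it stood at -0.14 and was not called, nor was it without either IL4 library, or with only the compared groups in the fit. The 2 calls among 10 genes compare with 13.1% of tested genes called in either direction. Irf1 rose with IL4 (1.03), from a mean of 95.4 to 195 CPM.

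With RANKL, 2 genes were called lower, against 19.8% of tested genes. H2-D1 was at 1462 and 1404 CPM against 2693 and 2829 CPM in WT_Veh (log2 fold change -0.95) and Tapbp at 339 and 334 CPM against 501 and 641 CPM (-0.76). Tapbp was not called without WT_Veh replicate 2 (-0.58), and without WT_Veh replicate 1 H2-K1, Nlrc5 and Tap2 were called lower too (-0.68, -0.76 and -0.67). Besides the neutrophil markers given above, every other marker list also had a higher sum in WT_RANKL than in WT_Veh. B cell markers summed to 3.07 to 3.63 against 0.137 to 0.138 CPM and dendritic cell markers to 4.64 to 5.09 against 0.479 to 0.688 CPM. Fibroblast markers summed to 169 to 189 against 72.3 to 79.5 CPM. RANKL libraries differ from vehicle in time, date stamp and these markers, and their column names call the cells osteoclasts. These cannot be told apart, nor can fewer cells of a type and less RNA per cell.

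The share of each immunoproteasome subunit among itself and the constitutive subunit it replaces was computed from CPM per kb, as a measure that does not depend on scaling. In WT_Veh, Psmb9 made up 25.96% to 33.3% of Psmb9 and Psmb6, Psmb8 67.9% to 75.1% of Psmb8 and Psmb5, and Psmb10 52.4% to 57.5% of Psmb10 and Psmb7. With PolyIC these ranges were 63.8% to 64.8%, 90.6% to 91.2% and 86.2% to 86.8%, and with KLA 58.0% to 58.6%, 88.9% to 89.4% and 79.4% to 79.5%. With IFNb they were 51.0% to 52.1%, 84.1% to 85.2% and 74.6% to 76.1%, all above the vehicle libraries. With IL4 the Psmb10 share was 73.1% to 73.7% and the Psmb9 share 35.7% to 36.8%, both above the vehicle libraries, and the Psmb8 share, 71.0% to 72.5%, lay among them. With RANKL the Psmb8 share was 43.4% to 44.5% and the Psmb10 share 27.6% to 29.6%, below vehicle, as the constitutive Psmb5 and Psmb7 rose (log2 fold change 1.70 and 1.17). The constitutive subunits were also called higher with KLA (Psmb5 0.67, Psmb6 1.05, Psmb7 1.09) and PolyIC (0.70, 0.94 and 0.65), by less than the immunosubunits.

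**Figure D3:**
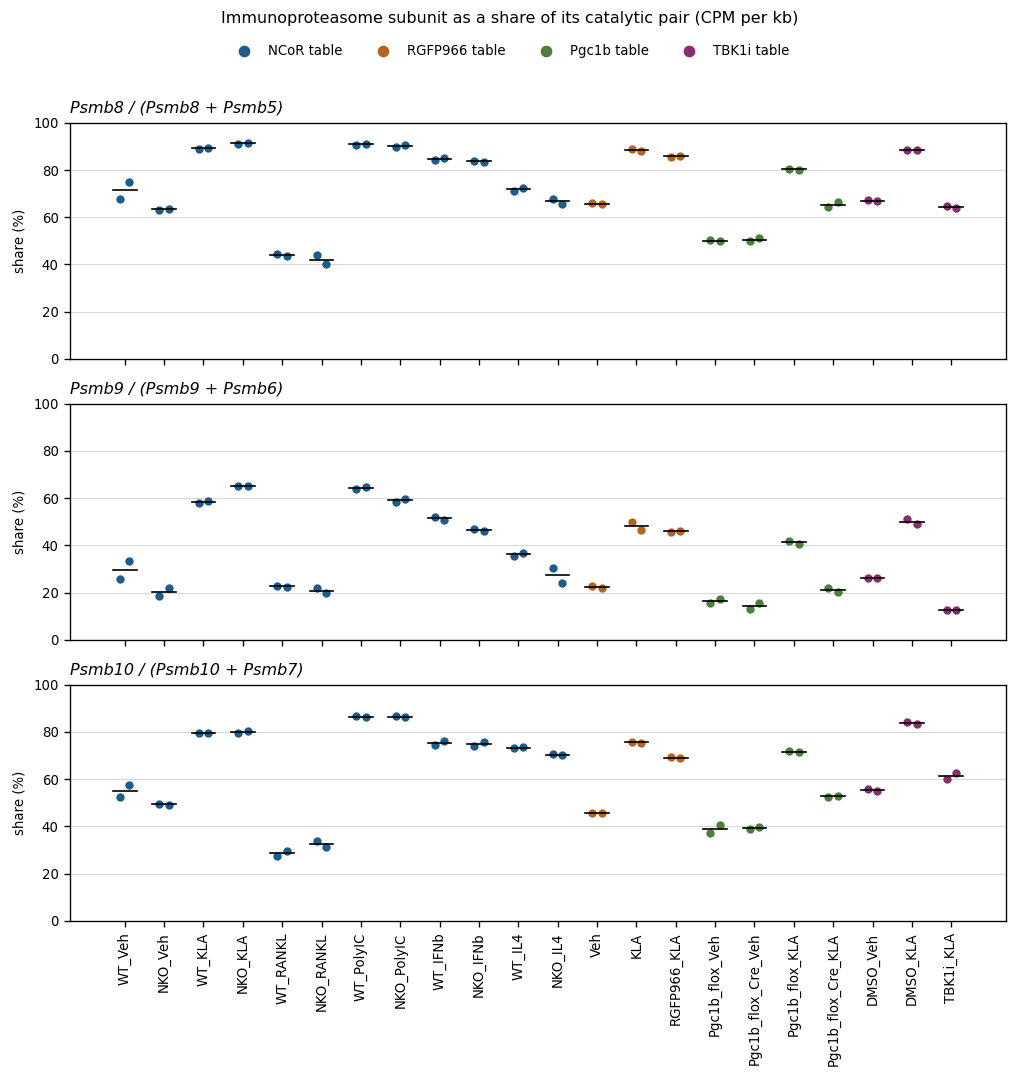
Share of each immunoproteasome subunit (percent of the sum with its constitutive counterpart, CPM per kb) in every library, by group. The Psmb9 share with TBK1 inhibitor and KLA, 12.5% to 12.7%, lies below the DMSO_Veh libraries, 26.1% to 26.3%.

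The TBK1 table asks how much of the KLA response is left when TBK1, a kinase upstream of type I interferon production, is inhibited. Against DMSO_KLA, 8 of 10 genes fell with the inhibitor, where 18.3% of tested genes were called lower, and the median over the 10 genes was -1.99 against 0.01 over all tested genes. Nlrc5 was at 33.5 and 32.2 CPM in DMSO_Veh, 784 and 791 CPM in DMSO_KLA and 32.8 and 35.9 CPM in TBK1i_KLA, so that the ranges of the inhibited and the vehicle libraries overlapped. The log2 fold change of Nlrc5 was -4.52 (95% interval -4.63 to -4.41) against DMSO_KLA and 0.06 (-0.09 to 0.21) against DMSO_Veh. Psmb9 was at 22.3 and 23.04 CPM, 204 and 186 CPM, and 20.4 and 21.3 CPM in the 3 groups, with -3.22 (-3.38 to -3.07) against DMSO_KLA. Both inhibited libraries lay below the vehicle libraries for Psmb9, a difference that was not called (-0.12, -0.32 to 0.08).

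With the inhibitor, Tap1, Tap2, Tapbp, Psmb8 and Psmb10 were called both lower than DMSO_KLA and higher than DMSO_Veh. Tap1 was at 56.0 and 57.4 CPM in DMSO_Veh, 1170 and 1188 CPM in DMSO_KLA and 88.0 and 94.1 CPM with the inhibitor (-3.70 against DMSO_KLA and 0.68 against DMSO_Veh). Tap2 was at 53.9 and 60.9, 610 and 589, and 172 and 175 CPM (-1.79 and 1.60). Psmb10 was at 56.9 and 56.5, 600.3 and 586, and 125 and 140 CPM (-2.16 and 1.22), and all these genes lay between the vehicle and the DMSO_KLA libraries. Psmb8 was at 58.2 and 57.9, 532 and 507, and 111 and 108 CPM (-2.25 and 0.91), and Tapbp at 423 and 413, 2696 and 2606, and 755 and 757 CPM (-1.81 and 0.86). B2m, at 1859 and 1828, 4482 and 4767, and 2063 and 2066 CPM, was called lower against DMSO_KLA (-1.16) and not called against DMSO_Veh (0.16). The classical heavy chains were the exceptions, with H2-K1 at 747 and 756, 2552 and 2591, and 1810 and 1864 CPM (-0.49, not called, and 1.29) and H2-D1 at 1980 and 2034, 3667 and 3499, and 2936 and 3046 CPM (-0.26 and 0.58, neither called).

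Against DMSO_Veh, 6 of the 10 genes were called higher in TBK1i_KLA, where 26.8% of tested genes were called higher. Without TMM the log2 ratios shifted by 0.366 against DMSO_KLA and by -0.413 against DMSO_Veh. H2-D1 then stood at 0.11 against DMSO_KLA. Against DMSO_Veh, B2m and Nlrc5, neither called, turned to -0.25 and -0.35, and Tap1 (0.27), Tapbp (0.44) and Psmb8 (0.50) fell under the fold threshold, while all 8 genes called lower against DMSO_KLA kept a fold change above 1.5. All 3 immunoproteasome shares were lower with the inhibitor than in DMSO_KLA, with Psmb9 at 26.1% to 26.3% in DMSO_Veh, 48.9% to 51.2% in DMSO_KLA and 12.5% to 12.7% in TBK1i_KLA. The Psmb8 share was 66.7% to 67.1%, 88.4% to 88.6% and 63.8% to 64.9%, and the Psmb10 share 54.9% to 55.6%, 83.6% to 84.0% and 60.0% to 62.6%. The Psmb8 and Psmb9 shares with the inhibitor thus lay below vehicle, although Psmb8 itself was called higher than in DMSO_Veh and Psmb9 was not called. The constitutive Psmb5, Psmb6 and Psmb7 were not called lower with the inhibitor (-0.16, -0.43 and -0.46) and stayed called above DMSO_Veh (1.07, 1.18 and 0.86). The 4 dendritic cell markers summed to 5.31 to 6.20 CPM in TBK1i_KLA (2 of 4 above 3 counts) and 1.97 to 2.54 CPM in DMSO_KLA (1 of 4), with Flt3 and Siglech at 0 in both, and their part in the result was not tested.

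The same contrast was read over the rest of the pathway. Irf1 was lower with the inhibitor than in DMSO_KLA (log2 fold change -0.78) and was called above DMSO_Veh (2.41). In this contrast 18.3% of all tested genes were called lower and 15% higher. Of 17 tested genes of the 27 other class I heavy chains, 10 were called lower and 0 higher. H2-T24, a non-classical heavy chain, was at a mean 220 CPM in DMSO_KLA and 5.41 CPM with the inhibitor (-5.33), and H2-T22 at 319 and 18.98 CPM (-4.07), though H2-T22 and H2-T9 overlap and share reads. Of 10 genes for PA28 caps and proteasome assembly 7 were called lower, of 7 genes for peptide loading and trimming 3, and of 11 other subunits of the proteasome core 5. Of 11 transcriptional regulators 5 were called lower and 2 higher. The heavy chains did not all follow, since 8 of the 17 were called higher than DMSO_Veh and 5 lower (26.8% and 30.5% of tested genes). H2-Q7 and H2-Q9, both called higher, had equal means (25.7 against 2.17 CPM in DMSO_Veh), so the 17 are not all separate measurements. H2-M2 was at a mean 211 CPM with inhibitor and KLA against 2.38 CPM in DMSO_Veh (6.47).

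The Pgc1b table set KLA in flox cells with LysMCre against flox cells without it, a comparison meant for the coactivator PGC1β. In vehicle 0 of the 10 genes were called by edgeR or DESeq2 (log2 fold changes -0.13 to 0.13), and 1 had an unadjusted edgeR p under 0.05, where 0.303% of tested genes were called in either direction. With KLA 9 of 10 genes were lower in libraries labelled Pgc1b_flox_Cre, where 12.9% of tested genes were called lower, and the median over the 10 genes was -1.43 against -0.00 over all tested genes. Nlrc5 was at 32.1 and 24.01 CPM in Pgc1b_flox_Veh, 664 and 620 CPM in Pgc1b_flox_KLA and 87.4 and 100.3 CPM in Pgc1b_flox_Cre_KLA (-2.78, 95% interval -2.96 to -2.59). Tap1 was at 37.6 and 36.5, 1019 and 927, and 273 and 297 CPM in the same groups (-1.77). Psmb9 was at 17.1 and 20.6, 164 and 149, and 55.2 and 48.4 CPM (-1.60), and in each of these genes the Cre libraries lay between vehicle and KLA.

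The log2 fold changes of the other called genes were -1.48 (Psmb10), -1.46 (Tap2), -1.40 (Psmb8), -1.10 (Tapbp), -0.71 (B2m) and -0.61 (H2-K1), and H2-D1 was not called (-0.43). Without TMM the shift was 0.201, and H2-K1 and B2m fell under the fold threshold. The difference itself, the Cre effect with KLA minus that with vehicle, was called for 9 genes, from -0.59 for H2-K1 to -2.64 for Nlrc5 (H2-D1 -0.50, not called), where 11.2% of tested genes were called lower. Without TMM the differences of H2-K1 (-0.36) and B2m (-0.38) fell under the fold threshold. The Psmb9 share was 15.8% to 17.5% in Pgc1b_flox_Veh, 40.7% to 42.1% in Pgc1b_flox_KLA and 20.3% to 21.9% in Pgc1b_flox_Cre_KLA. Irf1 was not called with Cre and KLA (0.42). Of the 17 other heavy chains 9 were called lower and 2 higher (12.9% and 13.2% of tested genes), with H2-T24 at a mean 181 CPM without and 20.2 CPM with Cre (-3.16). Ppargc1b itself was not lower in these libraries, Lyz2, whose promoter drives Cre, was lower with Cre (-0.87 with KLA), and a time is missing from the column names of the Cre libraries given KLA and present in those of the other KLA libraries. The 4 dendritic cell markers summed to 7.93 to 10.5 CPM with Cre and 4.52 to 5.72 CPM without, 2 of 4 above 3 counts in each, with Siglech at 0 with Cre and Flt3 at 0 without. Whether these bear on the difference was not tested.

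**Figure D4:**
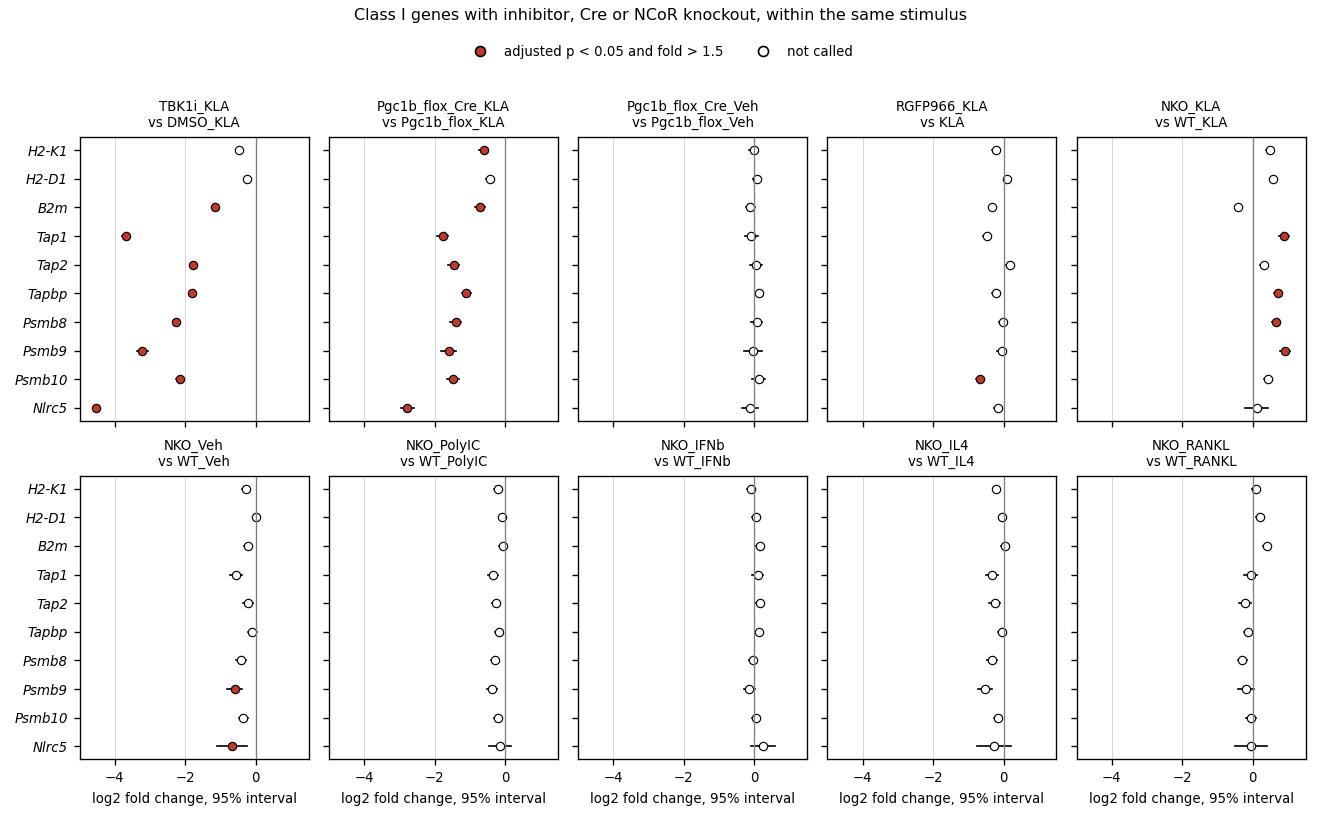
Log2 fold change of each of the 10 genes (x axis, 95% intervals, edgeR) in 10 comparisons, with called genes in red and the others open. They are the TBK1 inhibitor and RGFP966 with KLA, Pgc1b_flox_Cre with KLA and vehicle, and NKO under 6 treatments. Each is set against the control group of the same table, and NKO_KLA differs from WT_KLA in date and sex as well as genotype. Nlrc5 lies at -4.52 with the TBK1 inhibitor, at -2.78 with Pgc1b_flox_Cre and KLA and at 0.11 in NKO_KLA, where Tap1 and Psmb9 lie above 0.

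With the HDAC3 inhibitor RGFP966, 1 of the 10 genes was called lower than with KLA, where 9.54% of tested genes were called lower. Psmb10 was at 363 and 358 CPM with KLA and 220.3 and 234 CPM with RGFP966 and KLA (log2 fold change -0.67, adjusted p = 4.6e-17), against 44.7 and 43.8 CPM with vehicle. Its share of Psmb10 and Psmb7 was 75.4% to 75.8% with KLA and 68.9% to 69.2% with the inhibitor, without overlap. Tap1 was at 994 and 920.0 CPM with KLA and 692 and 687 CPM with the inhibitor (-0.47, under the fold threshold), and B2m at 6118 and 5875 against 4734 and 4910 CPM (-0.31). On adjusted p alone 6 genes were lower, where 24.6% of tested genes were, and Tap2 was higher (0.19). Psmb8 stood at -0.00 (95% interval -0.12 to 0.11) and Psmb9 at -0.05 (-0.18 to 0.08), neither called. Nlrc5 was at 565 and 563 CPM with the inhibitor and 647 and 613 CPM without (-0.16). The 5 neutrophil markers summed to 20.6 to 22.1 CPM with the inhibitor and 4.40 to 6.18 CPM with KLA, 2 of 5 above 3 counts and Elane, Ly6g and Mpo at 0 in both. The 2 NK cell markers summed to 1.25 to 1.50 CPM with the inhibitor (1 of 2 above 3 counts) and 0.0824 to 0.0956 CPM with KLA (0 of 2), with Ncr1 at 0 in both, and the 4 dendritic cell markers to 3.23 to 3.24 CPM (2 of 4) and 1.40 to 1.72 CPM (1 of 4), with Flt3 and Siglech at 0 in both. Replicate 2 of the inhibitor group carries a later date stamp, and the part of these in the result was not tested.

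NKO was compared with WT under each treatment. In vehicle 2 of 10 genes were called lower, where 3.8% of tested genes were. Psmb9 was at 27.3 and 35.8 CPM in WT_Veh and 18.7 and 22.7 CPM in NKO_Veh (-0.60), and Nlrc5 at 34.3 and 63.8 against 30.3 and 31.0 CPM (-0.68, adjusted p = 0.029). Both rest on WT_Veh replicate 2, the higher library of the pair, since without it Nlrc5 stood at -0.16 and Psmb9 at -0.39, neither called, and without WT_Veh replicate 1 Tap1 was called lower (-0.75) beside Psmb9 and Nlrc5. Nlrc5 was not called without either NKO_Veh library, and Psmb9 not without NKO_Veh replicate 1 (-0.47). The 5 osteoclast markers summed to 144 to 149 CPM in NKO_Veh (3 of 5 above 3 counts) and 53.8 to 65.8 CPM in WT_Veh (4 of 5), with Calcr at 0 in both. They were also higher in NKO with PolyIC (156 to 169 against 61.3 to 61.8 CPM), IFNb (142 to 146 against 56.1 to 60.4 CPM) and IL4 (148 to 149 against 63.8 to 66.8 CPM), with Calcr at 0 in each group. Fibroblast markers summed lower in NKO with vehicle (52.9 to 54.0 against 72.3 to 79.5 CPM) and PolyIC (49.6 to 57.7 against 95.4 to 109 CPM). The same held with IFNb (51.1 to 56.8 against 79.9 to 80.3 CPM) and IL4 (59.3 to 62.7 against 82.5 to 103 CPM). Under RANKL they summed higher in NKO (195 to 275 against 169 to 189 CPM). The part of these markers in the genotype comparisons was not tested. With PolyIC all 10 genes were lower in NKO by small amounts (log2 fold change -0.36 to -0.06), and 0 were called by edgeR or DESeq2, where 5.93% were called in either direction, while 7 had an unadjusted edgeR p under 0.05. On adjusted p alone 7 were lower, against 9.8% of tested genes, with Psmb9 at 264 and 252 CPM in WT and 199 and 202 CPM in NKO (-0.36) and Tap1 at 1424 and 1453 against 1121 and 1138 CPM (-0.35). These pairs did not overlap.

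With IFNb, IL4 and RANKL 0 of the 10 genes were called between NKO and WT by edgeR or DESeq2, where 3.8%, 4.24% and 13.2% of tested genes were called in either direction. Log2 fold changes lay between -0.14 and 0.24 with IFNb, -0.53 and 0.04 with IL4, and -0.29 and 0.39 with RANKL. On adjusted p alone edgeR gave 1, 5 and 4 genes, and 3, 6 and 5 had an unadjusted p under 0.05. The shares of all tested genes under these rules are not given here, so the counts are not read as a result. The differences in NKO effect from vehicle were called for B2m with RANKL (0.63, where 7.26% of tested genes were called higher) and Tap1 with IFNb (0.66, adjusted p = 0.0016, where 0.552% were). B2m was at 2115 and 2299 CPM in WT_Veh, 1921 and 1832 CPM in NKO_Veh, 2088 and 2064 CPM in WT_RANKL and 2849 and 2603 CPM in NKO_RANKL. Tap1 was at 69.2 and 92.5 CPM in WT_Veh, 52.8 and 56.6 CPM in NKO_Veh, 200.4 and 208 CPM in WT_IFNb and 206 and 231 CPM in NKO_IFNb. The 5 neutrophil markers summed to 918 to 987 CPM in NKO_RANKL and 629 to 654 CPM in WT_RANKL, and their part in the B2m difference was not tested. Without WT_Veh replicate 2 the differences were 0.56 and 0.44, neither called. The B2m difference also fell under the fold threshold without NKO_RANKL replicate 1 (0.56) and without TMM (0.58), and the Tap1 difference without NKO_IFNb replicate 2 (0.57). For PolyIC and IL4 0 of these differences were called by edgeR or DESeq2, where 3.24% and 0.604% were called in either direction, and 1 and 2 had an unadjusted edgeR p under 0.05.

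With KLA, 4 genes were higher in NKO than in WT, where 21% of tested genes were called higher, and genotype, date and sex cannot be told apart in this comparison. Tap1 was at 1066 and 1110 CPM in WT_KLA and 1959 and 2059 CPM in NKO_KLA (0.89), Psmb9 at 210 and 223 against 413 and 402 CPM (0.91), Tapbp at 2282 and 2277 against 3678 and 3834 CPM (0.72) and Psmb8 at 477 and 481 against 736 and 769 CPM (0.65). The groups did not overlap for these genes. B2m was at 6090 and 5969 against 4406 and 4617 CPM (-0.42, not called) and Nlrc5 at 805 and 814 against 886 and 857 CPM (0.11, 95% interval -0.21 to 0.42), while Psme2, a subunit of the PA28 cap, was lower in NKO, at a mean 81.3 CPM against 230.0 CPM in WT (-1.50). The number called depends on the control. In a joint fit of all 44 libraries, NKO_KLA had 5 genes higher against KLA of the RGFP966 table (where 21.4% of tested genes were), 8 against Pgc1b_flox_KLA (17.6%) and 2 against DMSO_KLA (18.1%). Tap1 and Psmb9 were called higher against all 4 controls, with log2 differences of 0.71 to 1.07 and 0.88 to 1.40. B2m was called lower against the RGFP966 table's KLA libraries (-0.73) and lay at 0.43 against Pgc1b_flox_KLA, so its direction changes with the control, and these differences between tables include whatever else sets the tables apart. The 4 dendritic cell markers summed to 9.24 to 13.7 CPM in NKO_KLA (3 of 4 above 3 counts) and 2.95 to 3.17 CPM in WT_KLA (1 of 4, Flt3 at 0). Fibroblast markers summed to 4.00 to 5.24 CPM in NKO_KLA (2 of 3 above 3 counts) and 0 to 0.167 CPM in WT_KLA (0 of 3). The part of these markers in the result was not tested.

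The other genes of the pathway were counted by list, where the share of all tested genes called higher and lower was 25.4% and 32.3% with KLA, 22.2% and 25% with PolyIC and 4.09% and 2.37% with IFNb. Of the 17 tested of 27 other class I heavy chains, 13 were called higher and 2 lower with KLA, 15 and 1 with PolyIC and 8 and 0 with IFNb. Of 7 genes for peptide loading and trimming, which include the aminopeptidase Erap1 and the chaperone Calr, 7 were higher with KLA, 3 with PolyIC and 1 with IFNb. Of 10 genes for PA28 caps and assembly, 6 were higher and 1 lower with both KLA and PolyIC and 3 higher with IFNb, and of 11 other subunits of the proteasome core 8, 7 and 0 were higher. Of 11 transcriptional regulators, 7 were higher and 2 lower with KLA and with PolyIC, and 2 higher with IFNb. Between NKO and WT, 7 of the 17 heavy chains were called lower in vehicle, 4 with PolyIC, 4 with IFNb and 5 with IL4, where 3.8%, 2.92%, 1.94% and 2.33% of tested genes were. Under these 4 treatments edgeR and DESeq2 called 0 of them higher, where edgeR called 2.4%, 3.01%, 1.86% and 1.9% of tested genes higher, and 1, 1, 0 and 0 lay above 0 with an unadjusted edgeR p under 0.05. With RANKL 1 was higher and 2 lower (6.21% and 6.99% of tested genes), and with KLA 7 were higher and 1 lower (21% and 19%). H2-Q4 stood at a mean 60.1 CPM in NKO_Veh against 90.5 CPM in WT_Veh (-0.59). H2-Q6 with H2-Q8 and H2-Q7 with H2-Q9 had equal counts in 21 and 23 of 24 libraries of the NCoR table, so these pairs are not separate measurements. The calls with PolyIC included H2-Q6, H2-Q8 and H2-Q9, and those with IFNb H2-Q7, H2-Q8 and H2-Q9, so both counts hold such pairs. With IFNb, H2-Q7 and H2-Q9 were at a mean 1.93 CPM in NKO against 6.45 CPM in WT. With vehicle, H2-Q4 was the only called heavy chain with a mean of at least 5 CPM. With IL4 this was H2-T10, at 3.27 CPM in NKO against 5.02 CPM in WT.

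Across the 12 groups of the NCoR table, whose means share libraries, depth and scaling, the genes' log2 levels had Pearson correlations with the mean of the other 9 of 0.834 for H2-D1 to 0.996 for Tap2 (n = 12 group means, descriptive). The closest pair was Psmb8 and Psmb9 (0.996), and the least alike H2-D1 and B2m (0.694). The 5 other genes whose 12 group means were most like the mean of the 10 were Sgcb (0.996), Pla2g16 (0.993), 9530068E07Rik (0.993), Arel1 (0.992) and D17Wsu92e (0.992), among 9795 compared. In the order of Nlrc5 levels in that table, NKO_IL4 was lowest, with NKO_Veh and WT_IL4 overlapping next, and WT_RANKL overlapped WT_Veh. In the order of H2-D1, WT_RANKL was lowest and WT_PolyIC highest, and WT_Veh overlapped NKO_Veh.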

How the data were processed

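Gene counts of 44 mouse BMDM libraries were analysed as deposited by the authors, who aligned single-end reads to mm10 with STAR and counted reads in exons with HOMER (versions not given in the sources used here). Per the file headers the values are raw counts, without normalization, with 1 transcript per gene. Study methods name strand-specific reads, but the headers name no strand option. No per-sample column was left unused.

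Each table was fitted separately with edgeR 4.0.16 in R 4.3.3 (TMM, filterByExpr, all groups of the table in a robust quasi-likelihood model). Genes tested were 13407 (NCoR), 12196 (RGFP966), 12205 (Pgc1b) and 12332 (TBK1i). Contrasts used the 2-sided F-test, and a call needed a Benjamini-Hochberg adjusted p under 0.05 with a change of more than 1.5-fold. Error is the SE, and intervals are 95%. Exact permutation tests cannot pass 0.05 with 2 libraries per group. A joint fit of 12468 genes compared NKO_KLA with KLA groups of other tables. The procedure was tested on simulated data. Genes and lists were chosen with earlier results of these data known. Genes named were the 10 members, Psmb5, Psmb6, Psmb7, Irf1 and, from the lists, up to 3 per contrast with the largest called change at a mean of at least 5 CPM, besides Ncor1, Ppargc1b and Lyz2. Erap1 and Calr are named as members of their list. Another gene of the naming rule is not reported here. Xist and Y-linked genes, the promoter motifs and the alternative without TMM were added after the data were seen.

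Alternatives were DESeq2 1.42.0, DESeq2 size factors, no filter, only the compared groups, a block for the replicate number, omission of each replicate, and calls with no fold threshold. Plots used matplotlib 3.10.9 and Python 3.11.15.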

Additional observations from a re-analysis of the deposited data

Results flagged for a closer look

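In 11 cases a gene's response to a genotype differed between vehicle and a stimulus by the interaction term of edgeR's quasi-likelihood test (adjusted p below 0.05, fold change above 1.5), with 2 libraries per group. The NCoR knockout effect on B2m was higher with RANKL than with vehicle by 0.63 on the log2 scale, and that on Tap1 was higher with IFNb by 0.66. Both values fell below the fold threshold without WT_Veh replicate 2 (0.56 and 0.44). That of B2m also did so without NKO_RANKL replicate 1 (0.56) and without TMM (0.58), and that of Tap1 without NKO_IFNb replicate 2 (0.57). In the Pgc1b table, the effect of LysMCre with KLA minus that with vehicle was -2.64 for Nlrc5, -1.69 for Tap1, -1.60 for Psmb10, -1.56 for Psmb9, -1.51 for Tap2, -1.46 for Psmb8, -1.23 for Tapbp, -0.60 for B2m and -0.59 for H2-K1. Without TMM the last pair stood at -0.38 and -0.36, under the fold threshold. Ppargc1b was not lower in the libraries with LysMCre, as given with the results.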

How the results depend on the processing

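Over 25 contrasts, the 10 genes gave 2650 fold changes under the alternatives. Of these, 2546 kept their side of the threshold, 25 lost and 79 gained a call, and 0 called values reversed. In 50 of the 2650, which were not called, the sign differed. Of 268 counts of called genes 234 stayed within 1.5 times. Without the fold threshold the counts rose in NKO_KLA (4 to 9), NKO_Veh (2 to 8), NKO_PolyIC (0 to 7), NKO_IL4 (0 to 5), NKO_RANKL (0 to 4), NKO_IFNb (0 to 1), RGFP966_KLA (1 to 7), WT_IL4 (2 to 5), WT_RANKL (2 to 5), and in the NKO differences from vehicle with RANKL (1 to 6), IFNb (1 to 5) and IL4 (0 to 1). Shares of all tested genes under that rule are given above only for genes lower in NKO_PolyIC and RGFP966_KLA. The other counts stand without such a share and are not read as a result. DESeq2 called 2 IFNb differences. Only the compared groups gave 1 for NKO_Veh and 1 for WT_IL4. Other KLA controls of NKO_KLA gave 2 (DMSO_KLA) and 8 (Pgc1b_flox_KLA) in place of 4. Leaving out 1 library gave 0 to 3 for NKO_Veh, 0 to 1 for NKO_IL4, 1 to 2 for WT_IL4, 1 to 5 for WT_RANKL, and 0 to 4, 0 to 3, 0 to 1 and 0 to 1 for the NKO differences with RANKL, IFNb, IL4 and PolyIC. Without TMM the H2-D1 log2 ratio for KLA against Veh was -0.048 (0.72 with it), and levels of 220 gene-group pairs were 0.695 to 1.41 times the scaled ones. The cause was not tested. Replicate numbers did not pair samples (correlation of deviations -0.06 to 0.059), and with a replicate block 25 of 25 counts stayed within 1.5 times, for example 4 genes for NKO_KLA. Depth was 8.32 to 16.8 megareads with 2 libraries per group, and the limits set by each were not compared.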
